A study of Mus musculus with 7 samples.

Results

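A set of 9 genes of the DiGeorge interval was examined in RNA-seq libraries of mouse outflow tract (OFT) at embryonic day 11.5 (E11.5). They are Crkl, Hira, Dgcr8, Dgcr2, Ranbp1, Ufd1, Gnb1l, Zdhhc8 and Arvcf, mouse counterparts of genes in the human chromosomal segment that is lost in DiGeorge (22q11) deletion syndrome. The genes were taken by symbol from the deposited expression table by a rule that names no measured value, although earlier results of these data were known when they were chosen, and 9 of 9 were among its 14732 listed genes. Tbx1, which belongs to the same interval, is not among the 9 genes and was not analysed here.

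Control embryos (genotype WT) were compared with Gata6STOP/+ embryos, which carry a premature stop in 1 copy of Gata6, a zinc-finger transcription factor of the heart and gut. The mutation was made by CRISPR-Cas9 in C57BL/6 zygotes, and the line descends from a selected founder that was backcrossed to C57BL/6. The list of reagents names Mib1 mutant alleles as the background of the injected embryos, and whether the pooled embryos carried such an allele was not analysed here. The labels give 3 control pools (replicates 3, 4 and 5) and 4 Gata6STOP/+ pools (replicates 1, 3, 4 and 5), whereas the methods describe 3 pools for each genotype. Each library was made from OFTs of several embryos together. The labels do not say which embryos went into which pool, so p-values measure the spread between these pools. Reads on listed genes numbered between 17783655 (control replicate 5) and 34467710 (Gata6STOP/+ replicate 5).

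Loss of 1 copy of the human interval causes malformations of the OFT and the great arteries, together with changes in the thymus, parathyroid and palate. The OFT is built from second heart field myocardium, endocardium and neural crest cells that move in from the pharyngeal arches, so genes of the interval can act in several of its cell types. The 9 proteins have separate tasks. CRKL is an SH2 and SH3 adaptor that carries signals from growth factor receptors, and HIRA is a chaperone that places histone H3.3 into chromatin. DGCR8 holds primary microRNA hairpins for cleavage by Drosha, and RANBP1 helps Ran to hydrolyse GTP in nuclear transport. UFD1 is a cofactor of the VCP segregase, which extracts ubiquitylated proteins, and GNB1L is a WD-repeat protein that helps to maintain kinases of the ATM and mTOR family. ZDHHC8 attaches palmitate to membrane proteins, ARVCF is a p120-type catenin that binds cadherins, and DGCR2 is a transmembrane protein thought to act in cell adhesion.

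All 9 genes lie on mouse chromosome 16, between position 17451987 (the start of Crkl) and position 18970309 (the end of Hira) of GRCm38, a span of 1518 kb. In the GENCODE annotation of that build, Crkl was at chr16:17451987-17487434 on the plus strand and Dgcr2 at chr16:17839482-17898562 on the minus strand. Zdhhc8 (chr16:18220753-18235136), Ranbp1 (chr16:18239784-18248732) and Dgcr8 (chr16:18253948-18289246) followed each other on the minus strand. Arvcf (chr16:18348182-18407076), Gnb1l (chr16:18498713-18566679), Ufd1 (chr16:18811779-18835261) and Hira (chr16:18877037-18970309) were on the plus strand. Several of them lie head to head with a gene on the other strand: the annotated starts were 53 bases apart for Ranbp1 and Trmt2a, 79 for Arvcf and Tango2, 175 for Hira and Mrpl40, and 208 for Ufd1 and Cdc45. Dgcr2 lies head to head with Tssk2, 75 bases away, and shares 63 exonic bases with Tssk1 on the other strand, neither of which is a listed gene.

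Sequences ahead of the start sites are shown for the 5 genes that best display what the promoters hold, namely letters of the CCAAT box, a common element of housekeeping promoters, and letters that GATA factors read. Windows of 300 bases, from 250 before to 50 after the start, were taken from RefSeq on GRCm38.p6, and both strands were searched for CCAAT (written ATTGG on the other strand) and for 4 forms of the GATA letters, AGATAA and AGATAG as well as TGATAA and TGATAG, which read TTATCT and CTATCT as well as TTATCA and CTATCA on the other strand. No match of one motif overlapped a match of the other. In the lines that follow, capitals mark CCAAT matches for Crkl (chr16:17451735-17451984, plus strand), Dgcr8 (chr16:18289247-18289418, minus strand), Arvcf (chr16:18348104-18348181, plus strand) and Ranbp1 (chr16:18248752-18248781, minus strand), and GATA matches for Ufd1 (chr16:18812079-18812258, plus strand). The stretches hold no annotated exon, except for the 30 bases of Ranbp1, which lie in an exon of the divergent gene Trmt2a. The Ufd1 stretch lies ahead of the RefSeq start but inside the GENCODE gene, which has a transcript that begins further upstream.
Crkl: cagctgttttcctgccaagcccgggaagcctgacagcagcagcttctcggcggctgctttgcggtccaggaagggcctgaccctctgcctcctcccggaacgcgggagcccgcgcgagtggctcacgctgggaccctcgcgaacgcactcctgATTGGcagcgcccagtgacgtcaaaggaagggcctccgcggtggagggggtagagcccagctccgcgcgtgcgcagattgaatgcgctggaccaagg
Dgcr8: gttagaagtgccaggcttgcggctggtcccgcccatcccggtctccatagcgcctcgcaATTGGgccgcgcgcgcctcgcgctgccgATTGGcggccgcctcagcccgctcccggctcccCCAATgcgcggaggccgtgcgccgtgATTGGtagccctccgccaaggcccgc
Arvcf: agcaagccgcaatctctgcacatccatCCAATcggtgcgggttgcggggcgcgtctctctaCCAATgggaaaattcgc
Ranbp1: tgtccgctgtcggagCCAATaaagctacac
Ufd1: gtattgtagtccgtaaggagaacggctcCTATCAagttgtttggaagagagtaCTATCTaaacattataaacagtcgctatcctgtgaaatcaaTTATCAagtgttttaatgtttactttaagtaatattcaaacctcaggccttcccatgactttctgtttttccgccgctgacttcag

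CCAAT letters were found in the windows of 5 of the 9 genes (Crkl, Dgcr2, Ranbp1, Dgcr8 and Arvcf), compared with 37.4% of all 32817 windows. The most upstream window was taken for each of the 9 genes (Arvcf has 3), whereas the share over all windows counts every window of a gene. The Dgcr2 window (chr16:17891679-17891978) lies inside the GENCODE gene, which begins further upstream. Dgcr8 held 4 matches, which began 191, 163, 130 and 104 bases before the start. The matches in Arvcf began 51 and 17 bases before it. GATA letters were found in 1 of the 9 windows, compared with 29.8% of all windows. This was the window of Ufd1, where 3 matches began 187, 162 and 121 bases before the start. The same 3 matches fell in the window of Cdc45, the replication factor gene that runs the other way. The windows of the 9 genes held 15 to 43 CpG each, against a median of 7 and an upper quartile of 20 over all windows, and those of Ufd1 (15), Arvcf (16) and Gnb1l (19) lay below that quartile. A match describes the letters only, and binding was not measured.

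Gata6 was measured first, as the gene that was mutated. Its level was 315.3, 257.4 and 285.9 CPM (read counts scaled to the size of each library) in control replicates 3, 4 and 5. In Gata6STOP/+ replicates 1, 3, 4 and 5 it was 268.4, 202.8, 218.8 and 216.8 CPM. Mutant replicates 3, 4 and 5 lay below all controls, and mutant replicate 1 lay above control replicate 4. The means were 286.2 ± 28.9 CPM (SD, n = 3) and 226.7 ± 28.7 CPM (SD, n = 4), a log2 fold change of -0.34 (SE 0.0987, 95% interval -0.56 to -0.12) on the log2(CPM + 0.5) scale. Its adjusted p was 0.389 by limma across all listed genes, and the exact two-sided permutation p was 0.114, where the smallest that 3 against 4 pools can give is 0.0571. With the replicate number as a block, edgeR's likelihood ratio test gave a log2 fold change of -0.423 and an adjusted p of 0.0164. The block setting leaves Gata6STOP/+ replicate 1 out of the contrast. Without that pool and without the block, limma also gave a log2 fold change of -0.423. For the mutated gene, the paper reports the same fold change as the block setting. Whether the replicate numbers pair the pools could not be decided here, and the main test did not use the block.

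For the 9 interval genes, no difference between control and Gata6STOP/+ OFTs passed the threshold of a test, and the pools of both genotypes overlapped for each gene. By limma, 0 of 9 had an adjusted p under 0.05, as did 0% of all listed genes. An unadjusted p under 0.05 was found for 0 of the 9, against 8.06% of all genes (1187), and the pool values of the genotypes overlapped in 9 of 9, whereas they did not overlap in 8.47% of all genes. On the reads recovered from the deposited values, edgeR's likelihood ratio test called 0.713% of all genes (105), DESeq2 called 0.597% (88) and edgeR's quasi-likelihood test 0%, and each called 0 of the 9. The fold changes of the 9 genes had a median size of 0.056 on the log2 scale, compared with 0.081 over all listed genes and 0.058 over the 3831 genes in the same range of levels as the 8 abundant members. The log2 fold change was above 0 for 4 genes and below 0 for 5, and the adjusted p-values of limma ran from 0.761 to 0.993.

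**Figure D1:**
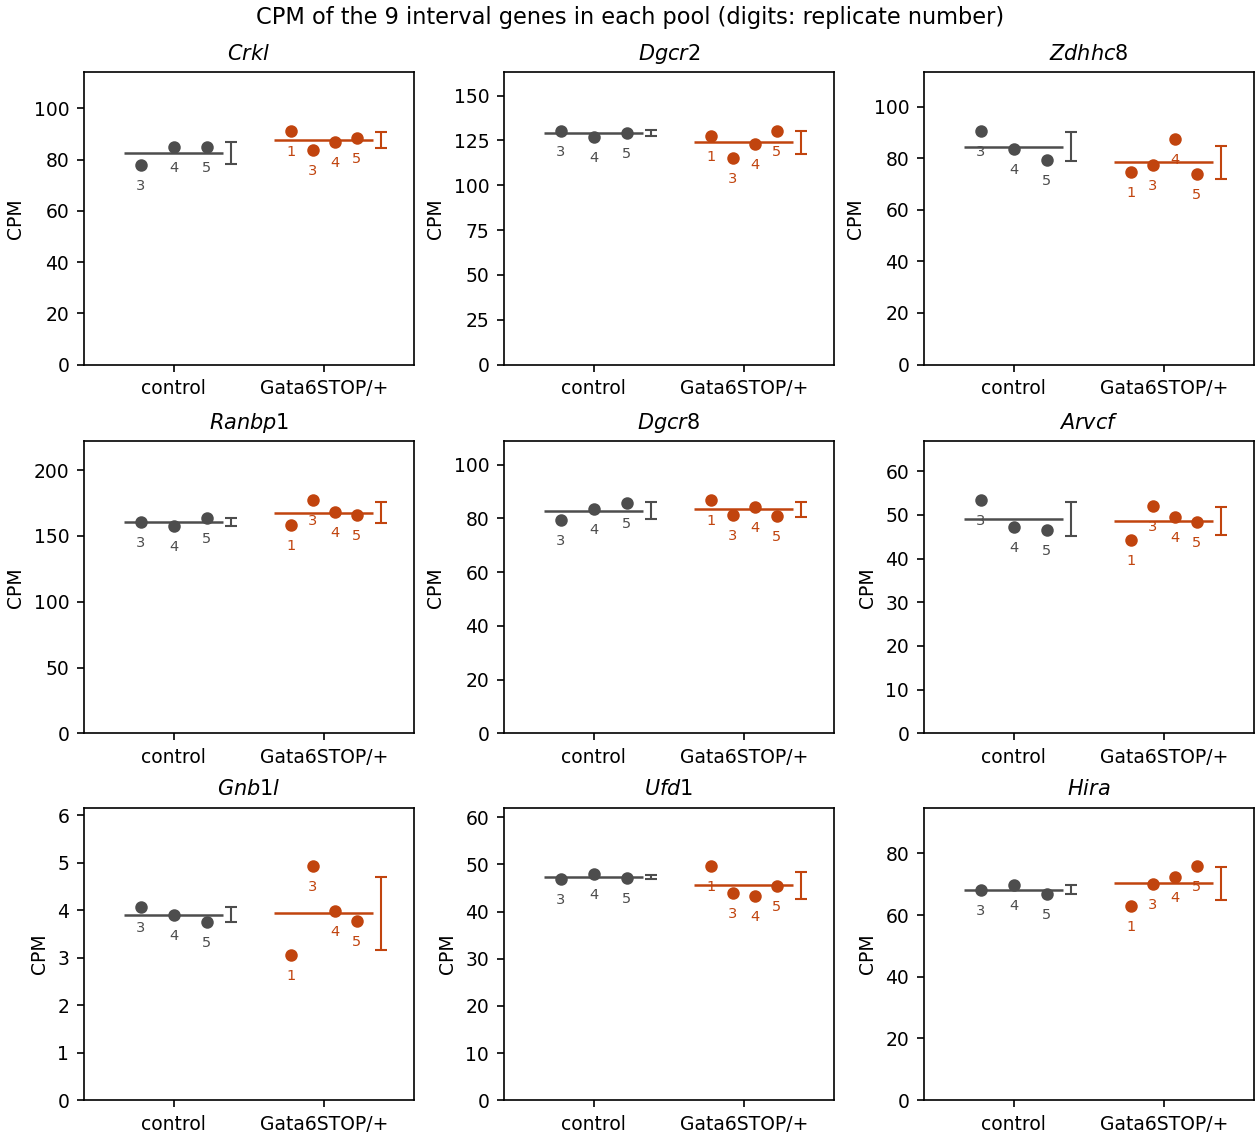
CPM of each of the 9 genes (y axes, from 0) in the 3 control pools and the 4 Gata6STOP/+ pools, with 1 point per pool, its replicate number beneath, a line at the group mean and a bar for ± 1 SD. The genotypes overlap in every panel, and Gnb1l has the largest SD over the 7 pools on the log2 scale (0.18).

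The adaptor gene Crkl was higher in the mutant mean. Its level was 77.7, 85.0 and 85.0 CPM in control replicates 3, 4 and 5. In Gata6STOP/+ replicates 1, 3, 4 and 5 it was 91.3, 83.9, 86.9 and 88.6 CPM. All mutant pools except replicate 3, which lay among the controls, were above every control. The means were 82.6 ± 4.18 CPM (SD, n = 3) and 87.7 ± 3.10 CPM (SD, n = 4), a log2 fold change of 0.09 (SE 0.0595, 95% interval -0.04 to 0.22, limma adjusted p = 0.761, exact permutation p = 0.171). Without control replicate 3, its lowest pool, the log2 fold change was 0.044. Among 8 partners of Crkl on the list of partner genes, which held Crk, Gab1, Gab2, Bcar1, Dock1, Rapgef1, Abl1 and Cbl, 0 had an unadjusted p under 0.05 by limma, and the log2 fold change was above 0 for 4 and below 0 for 4.

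The palmitoyl transferase gene Zdhhc8 was lower in the mutant mean. Its level was 90.7, 83.7 and 79.2 CPM in control replicates 3, 4 and 5. In Gata6STOP/+ replicates 1, 3, 4 and 5 it was 74.7, 77.5, 87.6 and 73.8 CPM. Mutant replicates 1, 3 and 5 lay below every control, and replicate 4 above 2 of them. The means of 84.6 ± 5.79 CPM (SD, n = 3) and 78.4 ± 6.34 CPM (SD, n = 4) gave a log2 fold change of -0.11 (SE 0.0752, 95% interval -0.28 to 0.06, limma adjusted p = 0.762, exact permutation p = 0.229). The log2 fold change was -0.058 without control replicate 3 and -0.16 without mutant replicate 4. Of 8 further palmitoylation genes 7 were listed, 6 of them other ZDHHC enzymes, and 0 had an unadjusted p under 0.05. Zdhhc5, the enzyme most like Zdhhc8, had means of 101.8 CPM in controls and 101.6 CPM in mutants.

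The chromatin and RNA genes of the interval differed less in their means. The control pools of Hira measured 68.0, 69.8 and 67.0 CPM, and its mutant pools 63.0, 70.1, 72.2 and 75.8 CPM (replicates 1, 3, 4 and 5). The mutant pools spanned the controls on both sides, and the log2 fold change was 0.04 (SE 0.0694, 95% interval -0.11 to 0.19, limma adjusted p = 0.917, exact permutation p = 0.571). It was 0.0016 without mutant replicate 5 and 0.090 without mutant replicate 1. Hira works with Ubn1, Ubn2, Cabin1 and Asf1a to deposit the histones encoded by H3f3a and H3f3b. Ubn2, a subunit of this complex, was the 1 of these 6 genes whose groups did not overlap, where 8.47% of all genes did not and 4.31% were higher without overlap. Over the whole partner list this held for 2 of 56 listed genes, both higher, and 0 of 56 had an adjusted p under 0.05 by limma. It measured 72.3, 69.0 and 66.9 CPM in control replicates 3, 4 and 5, and 76.0, 75.5, 76.0 and 75.6 CPM in the mutant pools. All mutant pools were above all controls, but the log2 fold change of 0.13 (SE 0.0545) had an adjusted p of 0.595 by limma.

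Dgcr8 was the steadiest of the 9 genes, with an SD of 0.047 over the 7 pools on the log2 scale. It measured 79.5, 83.7 and 85.6 CPM in control replicates 3, 4 and 5, and 87.0, 81.1, 84.1 and 81.0 CPM in Gata6STOP/+ replicates 1, 3, 4 and 5. The genotypes were intermixed, with a log2 fold change of 0.01 (SE 0.0571, 95% interval -0.12 to 0.13, limma adjusted p = 0.984, exact permutation p = 0.8). Drosha, the nuclease that Dgcr8 works with, measured 122.9 ± 0.967 CPM (SD, n = 3) in controls and 123.6 CPM in the mutant mean. None of 7 genes of the small RNA pathway (Drosha, Xpo5, Dicer1, Tarbp2, Prkra, Ago1 and Ago2) had an unadjusted p under 0.05 by limma. MicroRNAs themselves were not measured in these poly(A) libraries.

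Ranbp1 had the highest level per kilobase of the 9 genes. It measured 160.4, 157.8 and 163.8 CPM in control replicates 3, 4 and 5, and 158.6, 177.6, 168.2 and 165.8 CPM in Gata6STOP/+ replicates 1, 3, 4 and 5. Mutant replicates 3, 4 and 5 lay above every control, and replicate 1 among them. The log2 fold change was 0.06 (SE 0.0567, 95% interval -0.07 to 0.18, limma adjusted p = 0.826, exact permutation p = 0.171), and it was 0.031 without mutant replicate 3. Of 7 other genes of the Ran cycle, Ranbp2, a nucleoporin that binds Ran, was the 1 with an unadjusted p under 0.05, which 8.06% of all genes and 3 of the 56 listed partner genes had. Its means were 174.2 ± 19.2 CPM (SD, n = 3) and 204.1 ± 23.1 CPM (SD, n = 4), with overlapping pools and an adjusted p of 0.598 by limma. Ran itself measured 376.1 ± 12.2 CPM in controls and 372.7 CPM in the mutant mean.

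The control pools of Ufd1 measured 46.9, 47.9 and 47.2 CPM, a spread of 0.510 CPM (SD). Its level in Gata6STOP/+ replicates 1, 3, 4 and 5 was 49.6, 44.0, 43.2 and 45.5 CPM. Mutant replicate 1 lay above all controls and the other 3 mutant pools below them. The log2 fold change was -0.06 (SE 0.0656, 95% interval -0.20 to 0.09, limma adjusted p = 0.865, exact permutation p = 0.343). It was -0.031 without mutant replicate 4 and -0.096 without mutant replicate 1. Its partners in protein extraction, Nploc4, Vcp, Faf1 and Ubxn7, had 0 of 4 with an unadjusted p under 0.05, and Vcp, the segregase itself, had a mean of 710.9 CPM in controls and 692.3 CPM in mutants.

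Gnb1l had the lowest level per kilobase, with 67 to 136 reads in a pool. It measured 4.08, 3.90 and 3.75 CPM in control replicates 3, 4 and 5, and 3.05, 4.93, 3.99 and 3.78 CPM in Gata6STOP/+ replicates 1, 3, 4 and 5. The highest and the lowest pool were both mutant. The log2 fold change of -0.01 had a 95% interval from -0.36 to 0.34 (SE 0.158, limma adjusted p = 0.993, exact permutation p = 0.971), the widest interval of the 9 genes. Counting error alone was 10.1% at its median read number. GNB1L helps to keep up kinases such as ATM, and of 9 genes of that kinase family and its Telo2, Tti1 and Tti2 cofactors, Atm was the 1 gene whose groups did not overlap, the other of the 2 among 56 listed partner genes (8.47% of all genes). Atm, the DNA damage kinase, measured 18.4, 21.1 and 19.5 CPM in control replicates 3, 4 and 5, and 27.4, 22.3, 23.7 and 27.1 CPM in the mutant pools. Every mutant pool was above every control, with a log2 fold change of 0.34 (SE 0.0940, 95% interval 0.13 to 0.55) and an adjusted p of 0.351 by limma.

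The membrane-associated genes Arvcf and Dgcr2 were likewise intermixed. Controls 3, 4 and 5 gave 53.5, 47.2 and 46.5 CPM for Arvcf, and Gata6STOP/+ replicates 1, 3, 4 and 5 gave 44.3, 52.0, 49.5 and 48.3 CPM. Its highest pool was a control and its lowest a mutant, and the log2 fold change was -0.02 (SE 0.0759, 95% interval -0.18 to 0.15, limma adjusted p = 0.975, exact permutation p = 0.857). Among 8 catenin and cadherin genes, 0 had an unadjusted p under 0.05, and Ctnnd1, which encodes p120-catenin, had a mean of 405.6 CPM in controls and 421.9 CPM in mutants. For Dgcr2 the controls gave 130.4, 127.1 and 129.1 CPM, against 127.3, 115.3, 123.1 and 130.3 CPM in Gata6STOP/+ replicates 1, 3, 4 and 5. The controls differed by little and mutant replicate 3 was the lowest pool, with a log2 fold change of -0.06 (SE 0.0583, 95% interval -0.19 to 0.07, limma adjusted p = 0.839, exact permutation p = 0.286). Without that pool it was -0.023.

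The precision of these values sets what could have been seen. For the 8 members other than Gnb1l, which had between 831 and 5702 reads in a pool, the 95% intervals of limma lay between -0.28 and 0.22 on the log2 scale, that is from -17.4% to 16.3%. The highest pool exceeded the lowest by 1.09-fold to 1.23-fold in these 8 genes. Over the 7 pools their SD was 0.047 to 0.114 on the log2 scale, and in 6 of the 8 it was below the median of genes in the same range of levels (0.093). The sum of the 9 genes was 706 to 711 CPM in control pools and 699 to 719 CPM in mutant pools. Mutant replicate 1 held the highest value for 3 genes (Crkl, Dgcr8 and Ufd1) and the lowest for 3 others (Arvcf, Gnb1l and Hira). Control replicate 3 held the highest for 3 (Dgcr2, Zdhhc8 and Arvcf) and the lowest for 2 (Crkl and Dgcr8). Control replicate 5 held neither for any gene. The OFT is a mixture of tissues, in which fewer cells of a type and less RNA per cell cannot be told apart.

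Levels were compared between genes as CPM per kilobase of exonic length, over all 7 pools. Ranbp1 was the highest at 98.8 ± 4.13 CPM per kb (SD, n = 7). Dgcr2 (18.4 ± 0.785), Crkl (17.0 ± 0.843) and Zdhhc8 (16.6 ± 1.33) followed, and the pool values of neighbours in this order overlapped. Hira (11.17 ± 0.652), Dgcr8 (10.8 ± 0.353) and Ufd1 (10.7 ± 0.514) formed a further level whose neighbours overlapped. Arvcf at 7.26 ± 0.474 CPM per kb and Gnb1l at 0.930 ± 0.131 CPM per kb were below all of these in every pool. The order in the middle depended on the length used: per kilobase of the longest transcript, Ufd1 rose to rank 2.

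**Figure D2:**
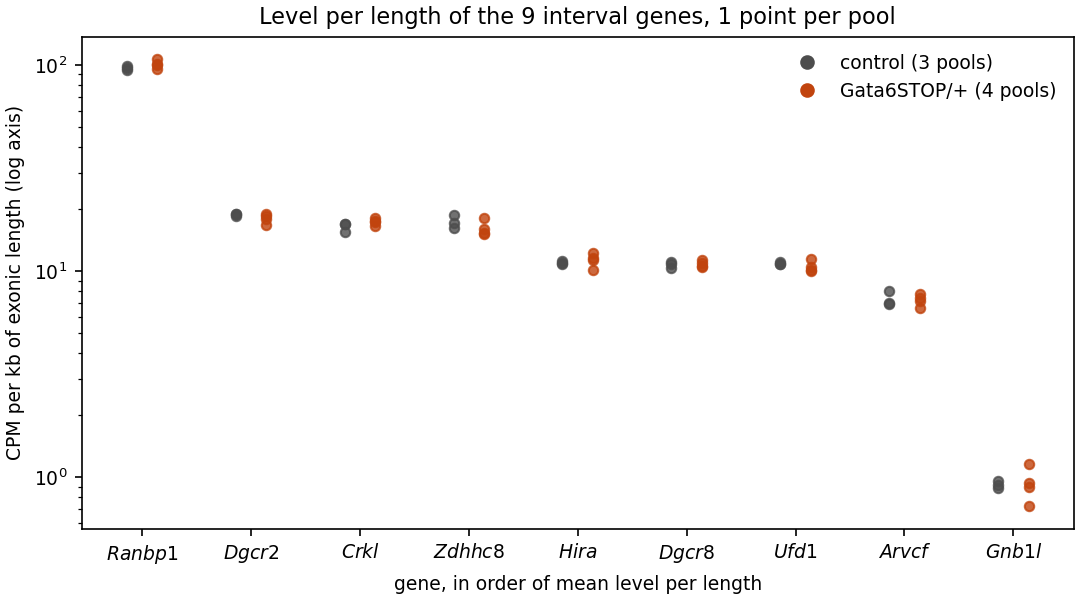
CPM per kilobase of exonic length (log axis) for the 9 genes in order of their mean, with 1 point per pool for 3 control and 4 Gata6STOP/+ pools. Ranbp1 stands at about 98.8 CPM per kb, 7 genes lie between 7.26 and 18.4, and Gnb1l is near 0.930.

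The rest of the interval gave the members their context. Of 28 other genes on the list of the interval, 21 were listed, all on chromosome 16 between Pi4ka and Hira, and by limma 0 had an adjusted p under 0.05. The log2 fold change was above 0 for 7 and below 0 for 14, with a median log2 fold change of -0.04. The groups did not overlap in 2 of the 21, both lower in the mutants, where 8.47% of all genes did not overlap in either direction and 4.16% were lower without overlap. Lztr1, an adaptor of a ubiquitin ligase that acts on RAS proteins, measured 84.5, 84.4 and 87.0 CPM in control replicates 3, 4 and 5, and 80.4, 74.5, 77.0 and 77.4 CPM in the mutant pools. All mutant pools lay below the controls (log2 fold change -0.14, SE 0.0543, limma adjusted p = 0.534). Thap7, a zinc-finger gene beside it, measured 18.1, 14.6 and 15.96 CPM in the controls and 12.4, 13.7, 14.3 and 14.5 CPM in the mutant pools, narrowly without overlap (log2 fold change -0.23, SE 0.0990, limma adjusted p = 0.591, and -0.15 without control replicate 3 or -0.30 without control replicate 4). Both follow Crkl on the chromosome, and Crkl itself was higher in the mutant mean. Cldn5, an endothelial tight junction gene, had a log2 fold change of 0.35 with an interval from -0.07 to 0.77.

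**Figure D3:**
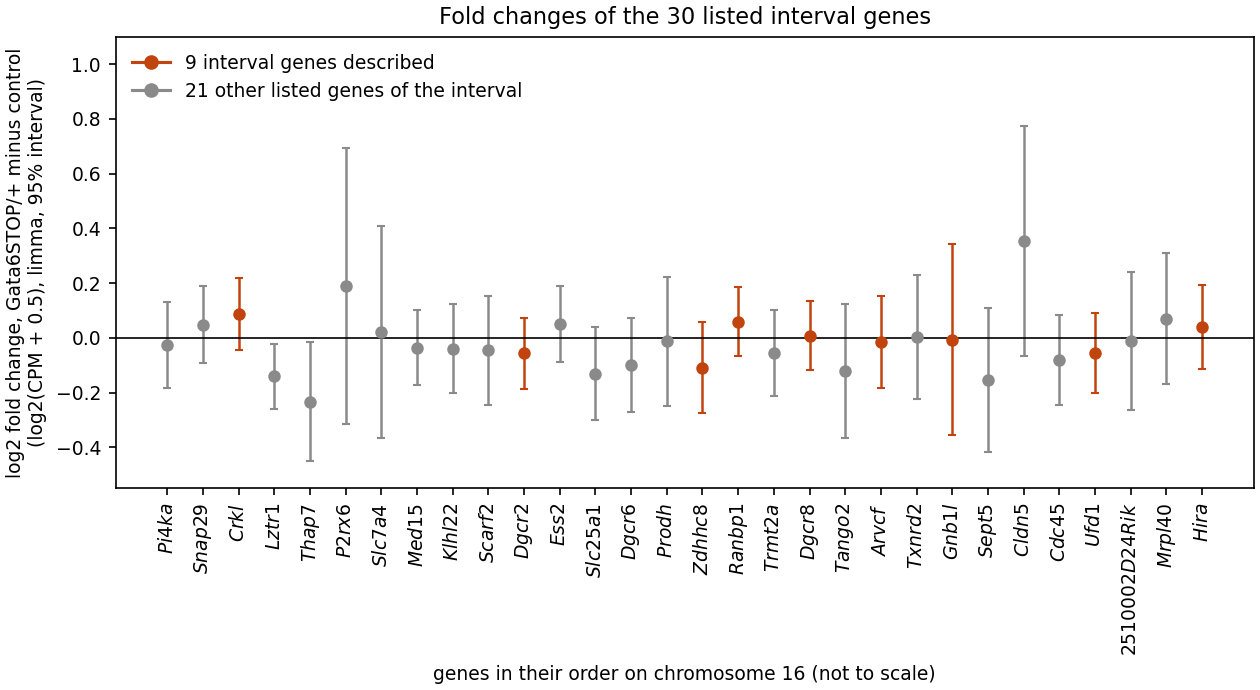
Log2 fold change (y axis, Gata6STOP/+ minus control, limma, with its 95% interval) of the 30 listed genes of the interval in their order on the chromosome (x axis, not to scale). The intervals of all 9 described genes include 0, and those of Lztr1 and Thap7 lie below it.

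Some members share bases with neighbours, and the counting can split their reads. The strand setting of the counting is not given in the sources used here. The divergent partners Trmt2a (47.7 ± 2.53 and 46.0 ± 2.92 CPM), Tango2 (16.9 ± 0.619 and 15.6 ± 2.10 CPM), Mrpl40 (27.0 ± 1.23 and 28.6 ± 4.34 CPM) and Cdc45 (32.1 ± 2.02 and 30.3 ± 1.73 CPM) overlapped between control and mutant pools. Trmt2a shares 825 exonic bases with the tail of Dgcr8 and 54 with Ranbp1, and Cdc45 shares 209 with Ufd1. A joined entry, Gm49776, shares 281 exonic bases with Ranbp1 and 327 with Dgcr8 on the same strand. Its pool values of 6.33, 18.9 and 13.3 CPM in control replicates 3, 4 and 5 and 9.75, 12.0, 12.8 and 8.14 CPM in the mutant pools varied far more than those of either gene. Gm20518 shares 1816 bases with Dgcr2 but averaged 1.42 CPM, and Rtl10 shares 146 with Gnb1l and averaged 1.76 CPM. For Hira, 44.7% of exonic bases are also annotated to the joined entry Gm28539, which is not a listed gene.

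Markers of the cell types of the OFT were present in each pool. The 7 myocardial genes, led by Myh7, summed to 20144 to 22802 CPM in controls, and to 16012 CPM in mutant replicate 1 and 20492 to 23363 CPM in the other mutants. The 4 smooth muscle genes (most abundant Acta2) summed to 2441 to 2889 CPM in controls and 2547 to 3397 CPM in mutants. The 5 endothelial genes (Tek) gave 601 to 774 and 664 to 818 CPM, and the 4 cushion mesenchyme genes (Postn) gave 866 to 1147 and 652 to 963 CPM. Of 4 neural crest genes 3 were listed, led by Erbb3, at 78.3 to 114 CPM in controls and 67.5 to 78.6 CPM in mutants, while Sox10 averaged 3.001 CPM and Foxd3 is not listed. All these sums overlapped between genotypes, those of the neural crest genes by less than 1 CPM. Of the 36 listed marker genes, 5 had an unadjusted p under 0.05 and 2 did not overlap between groups (8.06% and 8.47% of all genes), with no adjusted p below 0.333 by limma. Postn was at 758.5 ± 103 CPM in controls and 553.6 ± 114 CPM in mutants (log2 fold change -0.47, limma adjusted p = 0.433). Erbb3 was at 84.4 ± 17.7 and 63.7 ± 5.37 CPM (-0.39, limma adjusted p = 0.419), and both had all 4 mutant pools below the control median. Tnni1, a myocardial troponin, was lower without overlap at 938.5 ± 25.4 and 792.3 ± 121 CPM (-0.26, limma adjusted p = 0.598), whereas Myh6, a myosin of the same list, had a log2 fold change of 0.10 with overlapping pools (limma adjusted p = 0.891). Red cell genes, led by Hbb-y, varied the most, from 2232 CPM in control replicate 4 to 6788 CPM in mutant replicate 5. Neuronal genes summed to 41.9 to 65.9 CPM over all pools, with Tubb3 at 37.5 ± 10.2 CPM in controls and 27.9 ± 3.73 CPM in mutants (-0.39, limma adjusted p = 0.595) and Stmn2 higher in every mutant pool, at 16.6 ± 2.41 and 21.97 ± 1.62 CPM (0.40, limma adjusted p = 0.333). Macrophage genes (Csf1r) summed to 25.03 to 57.6 CPM. None of the 4 pharyngeal and foregut epithelium markers (Epcam, Cdh1, Foxa2 and Pax1) is a listed gene. Mutant replicate 1, the lowest in myocardial markers, also held the extremes of 6 interval genes. Control replicate 3, the highest control in those markers, held the highest value for 3 interval genes and the lowest for 2. The part of the cell mixture in these values was not tested.

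For each member the listed gene with the most similar pattern over the 7 pools was found by the root-mean-square difference of mean-centred log2 values, as a description of likeness alone. The closest match was that of Arvcf with Smg9, at 0.0099 among 7669 candidate genes. Dgcr2 was nearest to Uhrf1bp1 (0.0131), Ranbp1 to Actr3 (0.0185), Dgcr8 to Cnot9 (0.0186), Hira to Sirt5 (0.0193) and Crkl to Scaf8 (0.0199). Larger differences remained for Ufd1 with Vps11 (0.0268), Zdhhc8 with Fbxw4 (0.0340) and Gnb1l with Cend1 (0.0596). The measure is not scaled to the spread of each gene, and Gnb1l (SD 0.18) and Zdhhc8 (SD 0.11) varied the most of the 9. No other member of the interval was the nearest gene to any of the 9. With Gnb1l and steadier members barred, and few members among so many candidates, this says little about the interval.

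The fold changes of the members were recomputed with other tests, constants, filters, scalings and pools. In 16 settings for each gene, and 15 for Gnb1l, which is below the filter of 5 CPM, no member reached an adjusted p under 0.05. Crkl, Ranbp1 and Hira were higher in the mutants, and Dgcr2, Zdhhc8 and Ufd1 lower, in every setting run, whereas the sign changed for Dgcr8, Arvcf and Gnb1l.

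**Figure D4:**
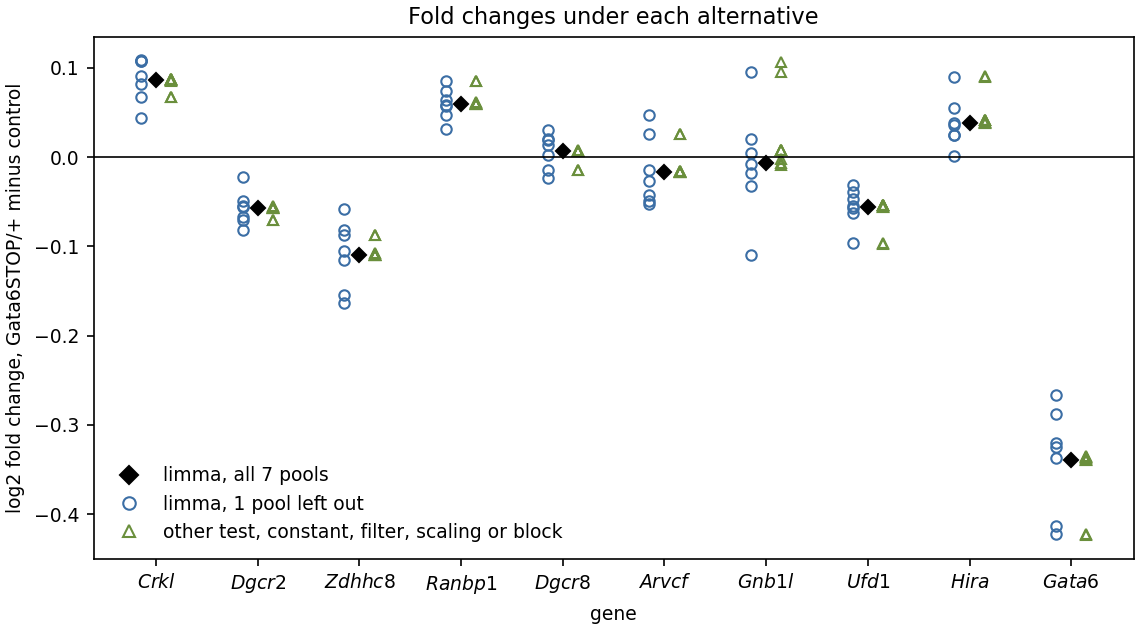
Log2 fold changes (y axis, Gata6STOP/+ minus control) of the 9 genes and of Gata6 (x axis) with all 7 pools by limma (diamonds), with each pool left out in turn (circles) and under the other tests, constants, filters, scalings and blocks (triangles). The 9 genes stay between -0.16 and 0.11, while Gata6 lies between -0.42 and -0.27.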

How the data were processed

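RNA was measured in 7 pools of E11.5 OFT with poly(A) selected, directional libraries. After trimming with Cutadapt, the authors used RSEM on GRCm38 (Ensembl annotation) for quantification and edgeR's TMM for normalization, and they retained only genes that reached 1 CPM in 3 or more samples, as the methods and the submitters' processing notes state. The deposited values are CPM per gene and pool, and all 14732 genes met that filter. Columns of the authors' own comparison were not used.

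Every CPM value was a whole multiple of the value of 1 read (100% of values, tolerance 0.001), so whole reads were recovered for edgeR 4.0.16 and DESeq2 1.42.0. The main test was limma 3.58.1 (R 4.3.3) with a mean-variance trend on log2(CPM + 0.5), two-sided, with Benjamini-Hochberg adjustment over all 14732 genes and a threshold of 0.05. Folds understate the change of low genes on this scale. The exact permutation test parted the 7 pools in 35 ways and was run for 10 genes (the 9 members and Gata6), and its p-values are unadjusted. Exonic lengths came from GENCODE M21. The tests were tried on simulated data.

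Named were all members and Gata6. Other interval genes and partner genes were named where the groups did not overlap or, for interval genes, with an unadjusted p under 0.05. Protein-coding genes that overlap or lie head to head with a member were also named, as was the nearest gene in pattern. A further gene is not reported here. Ranbp2, Cldn5, Zdhhc5, Drosha, Ran, Vcp, Ctnnd1 and 5 marker genes (Postn, Erbb3, Tnni1, Tubb3 and Stmn2) and Myh6 were named outside this rule, after their values were seen. The members and lists were chosen with earlier results of these data known. Alternatives were another constant, filter, scaling, test, block and leaving out each pool.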

Additional observations from a re-analysis of the deposited data

How the results depend on the processing

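With all 14732 genes, limma called 0 genes. It called 1 gene with a constant of 0.1, 14 with the replicate number as a block, and between 0 and 13 with 1 pool left out (13 without control replicate 4, 2 without Gata6STOP/+ replicate 3 and 1 without Gata6STOP/+ replicate 1). On recovered reads, edgeR's quasi-likelihood test called 0, its likelihood ratio test 105, the same test with the replicate block 118 and DESeq2 88. Each of these called 0 of the 9 members. Gata6 was lower in every setting (with 1 pool left out, -0.42 to -0.27), and it passed the threshold in 1 setting, the likelihood ratio test with the replicate block (log2 fold change -0.423, adjusted p = 0.0164). Deviations from the group means of same-numbered pools correlated at -0.0084, -0.118 and -0.0016. Such deviations cancel out within each small group, which constrains the correlations, so they can hardly show or exclude pairing. The main test did not pair the pools. The block drops Gata6STOP/+ replicate 1, which has no control of the same number, from the contrast. The sign of the log2 fold change differed from the main value for 3 members, and the cause was not tested. For Dgcr8 it was -0.0141 with the replicate block in both limma and the likelihood ratio test and ran from -0.0231 to 0.0302 with 1 pool left out. For Arvcf it was 0.0260 and 0.0262 with the block and ran from -0.0530 to 0.0468. For Gnb1l it was 0.0947 and 0.107 with the block, 0.0083 with the quasi-likelihood test, 0.0077 with the likelihood ratio test and 0.0080 with DESeq2, and it ran from -0.109 to 0.0947. Of the neighbours, Gm20518 ran from -0.196 to 0.555, Gm49776 from -0.572 to 0.180, Rtl10 from -0.162 to 0.256 and Mrpl40 from -0.0140 to 0.152 with 1 pool left out, and Rtl10 was at -0.0092 in the likelihood ratio test with the block. Per kilobase of the longest transcript in place of all exonic bases, the level was 151.7 CPM per kb for Ranbp1, 22.1 for Dgcr2, 16.5 for Hira, 19.2 for Dgcr8, 22.3 for Ufd1, 10.4 for Arvcf and 1.09 for Gnb1l. A scaling by median of ratios moved the median fold change of all genes by 0.0004. With 3 and 4 pools, the changes inside each member's 95% interval are those that the data do not set apart from the fitted value, and the interval of Gnb1l was the widest.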
